A study of Homo sapiens with 7 samples.

Results

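Kasumi-1 cells carried 2133 sites at which AML1-ETO peaks met those of AML1, p300 and N-CoR, of 18087 AML1-ETO peaks in all (11.8%). They were chosen by position: the 100 bp window around an AML1-ETO summit had to share at least 1 bp with a window of each of the 3 other proteins. Kasumi-1 is an established myeloblast line from peripheral blood that carries the t(8;21) translocation. Every list came from the same line, grown in suspension to log phase with no treatment and fixed with formaldehyde. The lists differed in the antibody used for chromatin immunoprecipitation followed by sequencing (ChIP-seq). The N-CoR and p300 precipitates were also washed in another way than those of AML1, ETO and H3K4me3. The part of the washes in the results was not tested. The AML1-ETO list was made with an antibody to ETO. The AML1 list was made with an antibody to the C-terminal part of AML1, which the fusion protein lacks. All results describe 1 cell line, in which AML1 and AML1-ETO are present together.

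AML1, also called RUNX1, binds DNA through its Runt domain and is needed for blood cell formation. The translocation joins this domain to ETO, and the fusion protein keeps the DNA binding of AML1 while it recruits co-repressors through ETO. N-CoR is a co-repressor that brings histone deacetylases to chromatin, p300 is a co-activator and histone acetyltransferase, and trimethylation of lysine 4 of histone H3 (H3K4me3) marks the starts of active genes. A site where all 4 proteins were found thus holds both kinds of co-regulator beside both AML1 proteins, although in a population of cells such a site can be occupied by different proteins in different cells, or on different alleles.

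The deposited lists held 18087 AML1-ETO windows, 11692 AML1 windows, 11020 p300 windows, 10004 N-CoR windows and 19632 H3K4me3 windows. The sites of all 4 proteins, called four-protein sites, made up 18.2% of the AML1 list, 21.3% of the N-CoR list and 19.4% of the p300 list. The authors pooled the replicates of each antibody before peak calling, so there is 1 list per antibody, no spread between replicates can be given and no test between conditions was possible. Intervals in brackets are 95% intervals (exact for shares and medians, Newcombe's for differences) and cover counting error over sites only, since neighbouring sites are not independent. The lists hold no read counts, so the depth behind a single site is unknown. The number of reads that the study gives for its libraries differs between antibodies, and its part in the results was not tested. As a check on the cells, in which any annotated start of a gene counted, the H3K4me3 list was compared with markers. It had a summit within 1000 bp of a transcription start of 8 of 8 markers of myeloid progenitors (MPO, ELANE, KIT, CD34, CD33, SPI1, CEBPA and CSF3R). It had one at 1 of 8 markers of other cell types, and the starts of CD3D, CD3E, MS4A1, HBB, ALB and NEUROD1 had none.

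The first set of sequences shows sites away from H3K4me3, most of which come early in the deposited AML1-ETO list. They are the plus strand of the reference genome GRCh37 (hg19) over the AML1-ETO window, 5′ to 3′. Capitals mark TGTGGT or TGCGGT, the Runx sequences to which AML1 binds, and AGGAAG or CCGGAA, the sequences of the ETS family of factors, on either strand.
ADCY7 intron (chr16:50316035-50316134): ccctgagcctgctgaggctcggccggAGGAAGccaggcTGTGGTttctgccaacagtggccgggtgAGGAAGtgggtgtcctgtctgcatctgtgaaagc
RNF166 intron (chr16:88767452-88767551): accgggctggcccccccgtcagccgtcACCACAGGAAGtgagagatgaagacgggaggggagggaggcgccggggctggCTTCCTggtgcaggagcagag
STAB1 intron (chr3:52532859-52532958): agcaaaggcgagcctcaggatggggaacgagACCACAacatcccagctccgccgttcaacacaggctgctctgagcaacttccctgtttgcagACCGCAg
BCL3 intron (chr19:45256699-45256798): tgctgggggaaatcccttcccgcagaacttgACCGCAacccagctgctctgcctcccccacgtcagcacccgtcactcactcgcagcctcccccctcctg
upstream of KLHDC4 (chr16:87814412-87814511): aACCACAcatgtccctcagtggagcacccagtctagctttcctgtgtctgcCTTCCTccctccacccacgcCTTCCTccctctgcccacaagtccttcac
RPS6KA1 intron (chr1:26868466-26868565): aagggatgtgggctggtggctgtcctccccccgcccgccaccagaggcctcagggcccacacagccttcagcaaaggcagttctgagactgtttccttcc
RUNX1 intron, first (chr21:36238007-36238106): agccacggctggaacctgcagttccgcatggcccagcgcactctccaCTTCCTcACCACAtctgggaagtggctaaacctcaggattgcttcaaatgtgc
RUNX1 intron, second (chr21:36399150-36399249): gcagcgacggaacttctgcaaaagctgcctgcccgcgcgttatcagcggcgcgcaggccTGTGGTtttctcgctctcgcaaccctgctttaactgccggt
GSE1 intron (chr16:85649628-85649727): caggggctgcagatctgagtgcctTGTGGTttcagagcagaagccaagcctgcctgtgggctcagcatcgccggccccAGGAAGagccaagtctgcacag
ZMIZ1 intron (chr10:80897710-80897809): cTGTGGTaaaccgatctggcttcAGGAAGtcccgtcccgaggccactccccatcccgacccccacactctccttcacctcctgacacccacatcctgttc
In the RNF166 window the Runx and ETS sequences shared a base, in the first RUNX1 window they were separated by a single base, and in the GSE1 window they stood far apart. The RPS6KA1 window, number 2 of the AML1-ETO list, held none of them.

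The next set shows sites near H3K4me3, where the DNA was richer in G and C and a Runx sequence was less frequent.
RNF149 promoter (chr2:101925353-101925452): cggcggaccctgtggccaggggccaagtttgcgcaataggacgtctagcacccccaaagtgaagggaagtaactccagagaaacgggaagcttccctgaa
LAPTM5 intron (chr1:31229518-31229617): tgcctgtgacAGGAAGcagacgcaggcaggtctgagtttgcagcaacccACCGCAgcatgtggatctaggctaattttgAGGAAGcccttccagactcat
ADNP promoter (chr20:49548276-49548375): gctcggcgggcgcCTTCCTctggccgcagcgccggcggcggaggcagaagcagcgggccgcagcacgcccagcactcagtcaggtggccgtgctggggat
CELF2 intron (chr10:11222393-11222492): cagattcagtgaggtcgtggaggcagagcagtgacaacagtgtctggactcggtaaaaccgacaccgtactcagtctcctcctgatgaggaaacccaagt

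The last sequence shows one of the sites where the summits of all 4 proteins lay closest together, within 4 bp in an intron of CACNB4.
CACNB4 intron (chr2:152945899-152945998): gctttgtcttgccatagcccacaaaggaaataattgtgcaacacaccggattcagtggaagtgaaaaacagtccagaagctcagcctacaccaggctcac
This window held neither a Runx nor an ETS sequence.

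Of the 2133 four-protein sites, 754 lay within 1000 bp of an annotated transcription start (35.3%, 33.3 to 37.4), beside 34.5% of all AML1-ETO windows. A further 847 lay in introns (39.7%), 98 in exons (4.59%), 172 within 10 kb upstream of a gene (8.06%) and 262 between genes (12.3%). The median distance to a start was 2825 bp (2457 to 3187). When starts of protein-coding genes alone were counted, the median was 6044 bp (5144 to 6898), and 348 sites (16.3%) lay more than 50 kb from any such start. Among the 754 sites at starts, 471 were upstream, 275 downstream and 8 on the start itself, with a median position of -24.5 bp and quartiles of -103 and 33.8 bp. The sites at promoters therefore lay close to the start on both sides, more of them upstream. Their position was not compared with that of other AML1-ETO windows.

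H3K4me3 summits lay within 1000 bp of 644 four-protein sites (30.2%, 28.2 to 32.2), beside 27.4% of all AML1-ETO windows. The share differed strongly from that of related AML1-ETO windows. Here and below, a window without a protein is one that met no window in the list of that protein. This does not show that the protein was absent, since weaker binding may not have been called. Of the 2830 windows shared with AML1 and N-CoR but not p300, 12.6% were near H3K4me3, 17.6 percentage points fewer than the four-protein sites (15.3 to 19.9). With only the first 50% of each list, that of H3K4me3 included, the four-protein share was 13.2% and the difference 8.39 points. Of the 709 windows shared with N-CoR and p300 but not AML1, 42.0% were near it, and the four-protein share was lower by a difference of -11.8 points (-16.0 to -7.75). Of the 379 windows shared with AML1 and p300 but not N-CoR, 79.7% were near it, a difference of -49.5 points (-53.7 to -44.7). The order for closeness to a transcription start was the same, with 22.3% of windows without p300, 43.0% without AML1 and 78.1% without N-CoR lying within 1000 bp of one. The four-protein sites thus stood between windows with N-CoR and no p300, which were mostly away from promoters, and windows with p300 and no N-CoR, which were mostly at them. For H3K4me3 and for starts, each of these differences was larger than its counting error.

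**Figure D1:**
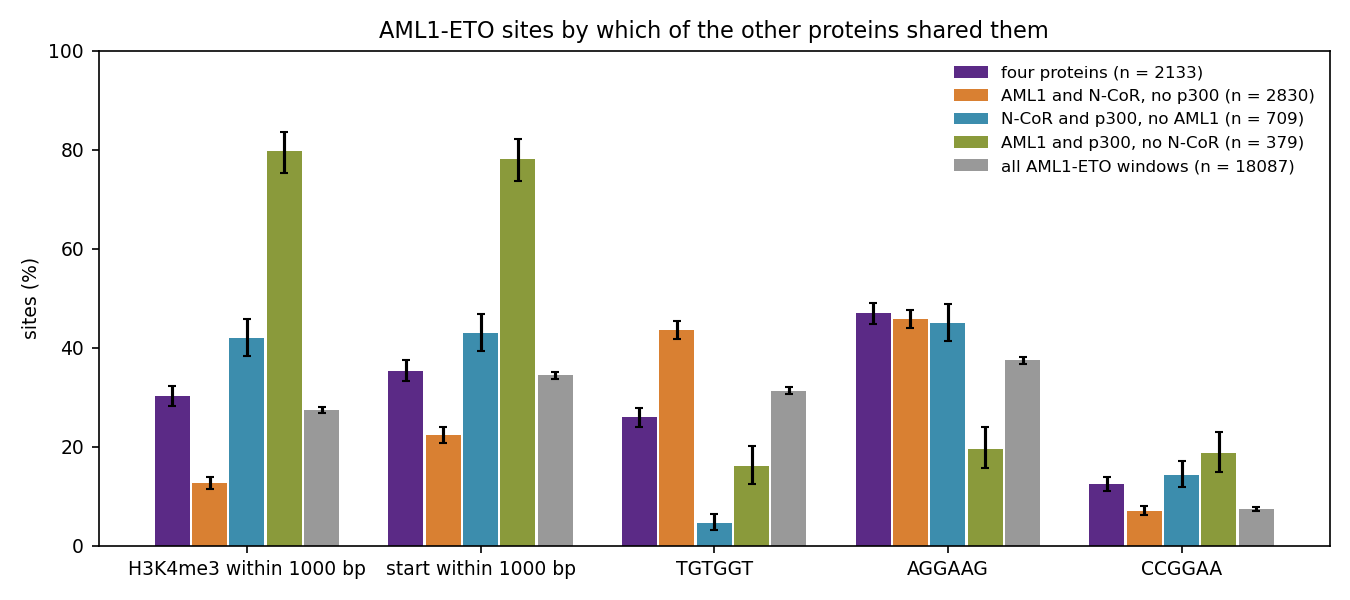
Shares of AML1-ETO windows (percent, y axis) with an H3K4me3 summit or a transcription start within 1000 bp and with the sequences TGTGGT or AGGAAG, or with CCGGAA, within 50 bp of the summit, by which of the other proteins shared the window; bars are shares and lines are exact 95% intervals. The four-protein sites lie between windows without p300 and windows without N-CoR for H3K4me3, starts and CCGGAA.

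The 644 sites near H3K4me3 and the 1489 away from it differed in more than their distance to a promoter. Of those near it, 500 were within 1000 bp of a start (77.6%), against 254 of those away (17.1%), so 254 four-protein sites stood at an annotated start with no H3K4me3 summit beside it. The H3K4me3 summit was to one side of the site and rarely on it. Its median distance was 336.5 bp, with quartiles of 270 and 467 bp, and in 6 sites the H3K4me3 window touched the AML1-ETO window. The windows near H3K4me3 had a mean GC content of 62.6% and 6.89 CpG per 100 bp, against 54.3% and 2.25 CpG in those away from it.

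The summits of the 4 proteins lay close together. The selection itself limits each of the 3 other summits to 99 bp from that of AML1-ETO, so these offsets are a description. The median offset from the AML1-ETO summit was 20 bp for AML1 (19 to 21), 20 bp for N-CoR (19 to 21) and 25 bp for p300 (24 to 27). Between the pairs without AML1-ETO, AML1 and N-CoR were 23 bp apart, N-CoR and p300 23 bp, and AML1 and p300 28 bp (27 to 30). The limit of 99 bp does not hold for these pairs, so they cannot be ranked against the pairs with AML1-ETO. Along the plus strand of the chromosome, the median signed offsets of the pairs lay between -1 and 2 bp. They were not turned by the strand of a gene or motif, so an order relative to these could not be seen. All 4 summits spanned a median of 49 bp (quartiles 33 and 70 bp, range 3 to 183 bp), and in 2006 sites (94.0%) all 4 windows shared a common stretch. In 30 sites the 4 summits lay within 10 bp and in 178 within 20 bp. When the summit farthest from the mean of the other 3 was recorded, it was that of p300 in 718 sites (33.7%), AML1 in 576 (27%), N-CoR in 410 (19.2%) and AML1-ETO in 405 (19.0%), with 24 ties. Membership limits AML1-ETO more than the others in this count. Offsets were also taken where the list of 1 protein had no window that met that of AML1-ETO. AML1 and N-CoR lay 19 and 20 bp from AML1-ETO in the windows without p300, and N-CoR and p300 20 and 26 bp in the windows without AML1. In the windows without N-CoR the offsets were larger, 29 bp for AML1 (26 to 33) and 37 bp for p300 (33 to 40).

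Few sites lay close to the limit that set membership. A largest offset of 95 to 99 bp was found in 31 four-protein sites, and 29 AML1-ETO windows missed membership by at most 5 bp. Inside, at 99 bp, were sites whose nearest protein-coding starts were those of PRR5, JADE2, LYL1, SFT2D1 and CEBPA. Outside, at 100 bp, were windows nearest to ATP2B4, MRPS18A, LIMS2, VASH1 and OGT.

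Sequences were counted within 50 bp of the AML1-ETO summit on either strand, and beside the sites the same was done 1000 bp to either side. A match is a description of the DNA and does not show that a factor was bound. AGGAAG, an ETS sequence, was the most frequent. It was present in 1001 four-protein sites (46.9%, 44.8 to 49.1), in 37.5% of all AML1-ETO windows and in 11.6% of the flanks. GAGGAA, which the ETS factor PU.1 prefers and which overlaps AGGAAG in GAGGAAG, was present in 645 sites (30.2%), in 26.0% of all AML1-ETO windows and in 8.53% of the flanks. The pair occurred together in 495 sites. CCGGAA, the other ETS sequence, was found in 266 sites (12.5%, 11.1 to 13.9), in 7.35% of all AML1-ETO windows and in 1.59% of the flanks. The Runx sequence TGTGGT was found in 553 sites (25.9%, 24.1 to 27.8), fewer than the 31.3% of all AML1-ETO windows, and in 6.96% of the flanks. Its variant TGCGGT was found in 205 sites (9.61%), in 9.48% of all AML1-ETO windows and in 1.43% of the flanks. AACNGC, a sequence of the factor Myb, was present in 575 sites (27%), against 22.4% of all AML1-ETO windows and 10.4% of the flanks. TTGCNNAA, a C/EBP sequence, was present in 232 sites (10.9%), against 8.75% and 4.41%. TGANTCA, an AP-1 sequence, was present in 102 sites (4.78%), against 5.19% and 2.63%, and the GC box GGGCGG in 251 sites (11.8%), against 12.5% and 4.66%. Unlike these, AGATAA and the CCAAT box were less frequent at the sites than in the flanks. AGATAA, to which GATA factors bind, was present in 62 sites (2.91%), against 3.30% of all AML1-ETO windows and 4.52% of the flanks, and the CCAAT box in 139 sites (6.52%), against 7.71% and 10.8%. The E-box CAGCTG was present in 242 sites (11.3%), against 13.2% and 5.04%, so it was more frequent at the sites than in the flanks. ETS sequences of both kinds were thus more frequent at four-protein sites than at all AML1-ETO windows, whereas TGTGGT was less so.

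A Runx and an ETS sequence (TGTGGT and AGGAAG) stood together in 254 four-protein sites (11.9%), beside 11.1% of all AML1-ETO windows. AGGAAG without TGTGGT was found in 747 sites (35.0%), TGTGGT without AGGAAG in 299 (14.0%), and neither in 833 (39.1%). When TGCGGT and CCGGAA were counted too, 592 sites (27.8%, 25.9 to 29.7) held none of the 4 sequences. Repeats of the Runx sequence were rare, with 47 sites holding 2 or more, whereas 284 sites (13.3%) held 2 or more AGGAAG. Within 100 bp of the summit, 227 sites held exactly 1 of each, a median of 55 bp apart (49 to 60). Of these, 106 had both on the same strand, and the most frequent arrangement of distance and strand occurred in 3 sites, so no fixed spacing was seen. In the windows without p300 the distance was 45 bp (41 to 49, n = 475).

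The contrast with the windows that had AML1 and N-CoR but no p300 was larger for the Runx sequence than for AGGAAG. The sequence TGTGGT was present in 43.6% of the windows without p300, a difference of -17.6 points (-20.2 to -15.0) for the four-protein sites. AGGAAG was present in 45.8% of them, a difference of 1.17 points (-1.63 to 3.97), and GAGGAA in 30.9%, a difference of -0.644 points (-3.22 to 1.95), so over all sites the interval included 0 for both. Away from H3K4me3, however, AGGAAG was present in 50.6% and 47.0%, a difference of 3.61 points (0.397 to 6.81), and 2 or more AGGAAG were more frequent over all sites by 2.54 points (0.714 to 4.40). Over all sites, CCGGAA was present in 7.07% of the windows without p300, a difference of 5.40 points (3.73 to 7.12). The difference was smaller within strata, 2.90 points away from H3K4me3 (1.32 to 4.59) and 2.10 points near it, where the interval included 0 (-3.36 to 7.26). In the windows without AML1 and without N-CoR, CCGGAA was present in 14.2% and 18.7%, differences of -1.77 points (-4.85 to 1.02) and -6.26 points (-10.7 to -2.37). Against the windows with N-CoR and p300 but no AML1 the Runx contrast turned round. These held TGTGGT in 4.51% (3.11 to 6.31), beside 5.36% of their own flanks (4.25 to 6.66), and the four-protein share was higher by 21.4 points (18.9 to 23.7). Their AGGAAG share of 45.0% differed by 1.94 points (-2.31 to 6.14). In the windows without N-CoR, AGGAAG was found in 19.5%, 27.4 points below the four-protein sites (22.6 to 31.6). These windows held TGTGGT in 16.1%, and the four-protein share was higher by 9.83 points (5.40 to 13.7). They held TGCGGT in 18.5%, a difference of -8.86 points (-13.2 to -5.04) for the four-protein sites. With either Runx sequence counted, the interval of the difference included 0 (0.422 points, -4.87 to 5.44). Of the remaining AML1-ETO windows, AGGAAG was found in 43.7% of those with N-CoR alone, 37.0% with AML1 alone, 18.1% with p300 alone and 32.4% with none of the 3.

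**Figure D2:**
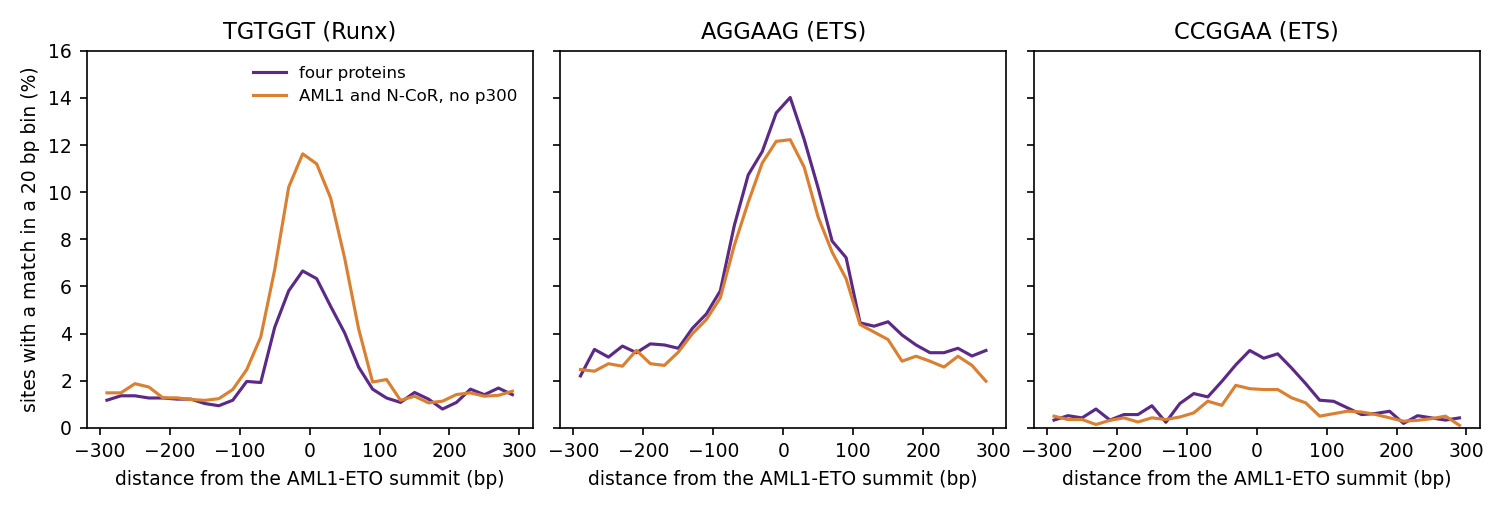
Share of sites (percent, y axis) with a match in each 20 bp bin against the distance from the AML1-ETO summit (bp, x axis), for four-protein sites and for windows with AML1 and N-CoR but no p300. TGTGGT reached 6.66% of four-protein sites in the bin before the summit against 11.6% of the windows without p300, AGGAAG reached 14.0% against 12.2% in the bin after it, and CCGGAA 3.28% against 1.66% in the bin before it.

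The difference in TGTGGT was larger than its counting error in sites away from H3K4me3. Here, TGTGGT was present in 29.9% of four-protein sites and in 47.0% of windows without p300, a difference of -17.1 points (-20.1 to -14.0). Near it, the shares were 16.8% and 19.9%, and the interval of the difference included 0 (-8.32 to 1.78 points). Whether the difference itself was unequal between these strata was not tested. With TGCGGT counted as well, however, a difference was seen in both, -9.71 points near H3K4me3 (-15.9 to -3.59) and -18.2 points away from it (-21.3 to -15.0). Away from H3K4me3, mean GC content was 54.3% at four-protein sites and 50.0% in windows without p300, with 2.25 and 1.58 CpG per 100 bp. The part of base composition in the Runx differences was not tested. Among the four-protein sites themselves, those near H3K4me3 held less TGTGGT than those away from it by a difference of -13.1 points (-16.7 to -9.29). They also held less AGGAAG (38.4% against 50.6%). TGCGGT went the other way, with 14.3% near H3K4me3 and 7.59% away from it, a difference of 6.70 points (3.81 to 9.86). With either Runx sequence counted, the difference was -7.10 points (-11.3 to -2.74). The sites near H3K4me3 held more CCGGAA (22.8% against 7.99%, a difference of 14.8 points, 11.4 to 18.5) and more GC boxes (24.8% against 6.11%). CCGGAA and the GC box both contain CG or runs of G and C, and the GC content of these windows was higher, whose part in the difference was not tested.

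The AML1 summit stood nearest to the Runx sequence. Among 610 four-protein sites with exactly 1 TGTGGT within 100 bp of the AML1-ETO summit, the median distance to its centre was 22 bp for AML1 (20 to 26), 31 bp for AML1-ETO (28 to 34), 35 bp for N-CoR (33 to 39) and 43 bp for p300 (40 to 48). AML1 was the nearest of the 4 in 229 sites (37.5%), AML1-ETO in 179 (29.3%), N-CoR in 94 (15.4%) and p300 in 84 (13.8%), with 24 ties. Compared pair by pair, AML1 was nearer than p300 in 412 sites and farther in 182, nearer than N-CoR in 404 and farther in 195, and nearer than AML1-ETO in 327 and farther in 270. The variant TGCGGT, in 261 sites, gave the same order with 21, 29, 34 and 43 bp. The order for AGGAAG was different. Over 788 sites with exactly 1 match, the distances were 33 bp for N-CoR (30 to 36), 36 bp for p300 (33 to 38), 36.5 bp for AML1-ETO (33 to 40) and 41 bp for AML1 (38 to 42). AML1 was thus nearest to the Runx sequence and p300 farthest from it. For AGGAAG the median of AML1 was the largest, but its interval was separate from that of N-CoR alone. The search around the AML1-ETO summit bounds the distance of that protein alone, so the search was repeated around the mean of the 4 summits. No median moved outside its interval. This search was added once the values were known.

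**Figure D3:**
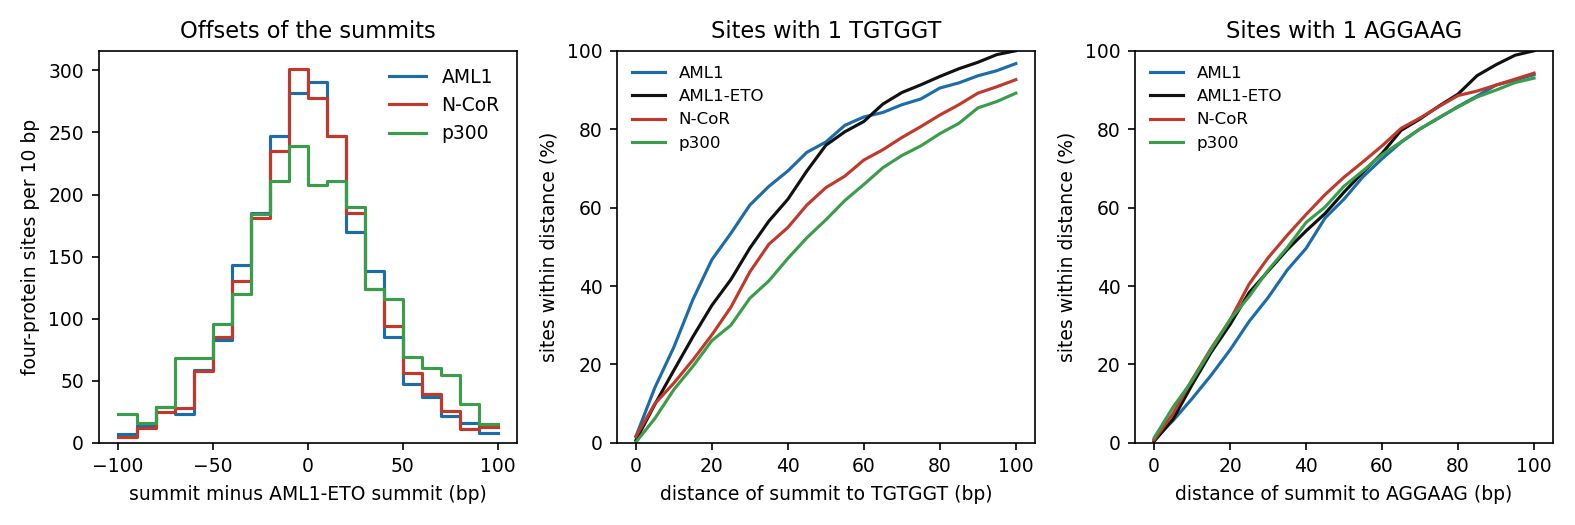
Left, number of four-protein sites per 10 bp (y axis) by the offset of the AML1, N-CoR or p300 summit from the AML1-ETO summit (bp, x axis). Middle and right, the percent of sites with exactly 1 TGTGGT (610 sites) or 1 AGGAAG (788 sites) in which each protein's summit lay within a given distance of it (bp, x axis); at 10 to 40 bp the AML1 curve is the highest for TGTGGT and the lowest for AGGAAG.

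The lists carry no score, but their rows are numbered, and what the order means is not stated in the sources used here. The four-protein sites came early in it. They made up 47.3% of the first 10% of the AML1-ETO list (856 of 1808 windows, 45.0 to 49.7) and 1.93% of the last 10% (35 of 1809). In the N-CoR list they made up 67.1% of the first 10% (64.1 to 70.0) and 4.00% of the last. The share fell less steeply in the AML1 list, from 43.4% to 7.61%, and in the p300 list, from 35.4% to 15.2%. Along the AML1-ETO list the sites also differed in kind. H3K4me3 was within 1000 bp of 20.7% of the four-protein sites in the first 10% (18.0 to 23.5) and of 74.3% in the last (56.7 to 87.5), while TGTGGT went from 33.3% (30.1 to 36.6) to 8.57% (1.80 to 23.1) and AGGAAG from 49.9% (46.5 to 53.3) to 14.3% (4.81 to 30.3). In the windows without p300 the H3K4me3 share was 13.1% in the first 10% and 14.6% in the last, and the TGTGGT share 47.0% and 39.6%. In each of the 10 equal parts of the list the four-protein sites had the higher H3K4me3 share and the lower TGTGGT share, so both differences kept their direction along the whole list.

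**Figure D4:**
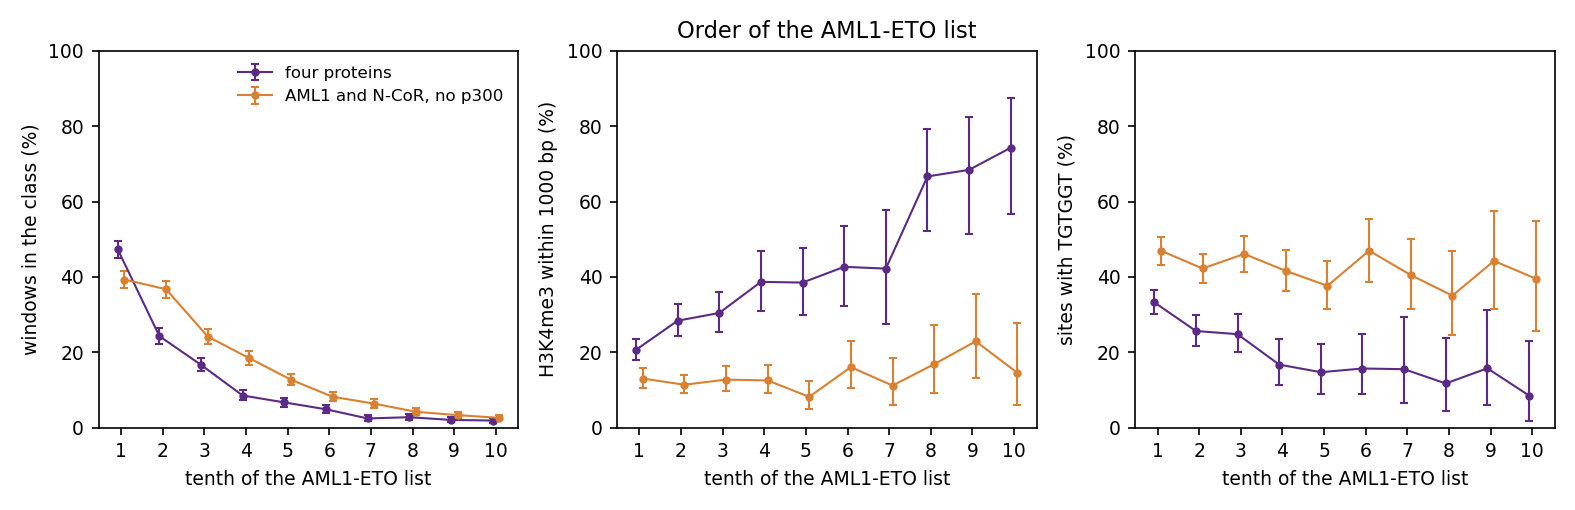
Left, percent of AML1-ETO windows in each of 10 equal parts of the deposited list that were four-protein sites or windows with AML1 and N-CoR but no p300; middle and right, percent of these with an H3K4me3 summit within 1000 bp and with TGTGGT within 50 bp. Points are shares, bars exact 95% intervals, and the last parts hold few sites (35 four-protein sites in the last one).

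Of the four-protein sites 364 (17.1%, 15.5 to 18.7) had another four-protein site within 10 kb, against 9.75% of the windows without p300 for their own kind (a difference of 7.31 points, 5.39 to 9.27). The windows without p300 were more numerous. The shares of 8.18% without AML1 and 0.528% without N-CoR cannot be compared with these, since those groups hold fewer windows and so fewer neighbours of their own kind. Any other AML1-ETO window lay within 10 kb of 1226 four-protein sites (57.5%), beside 44.8% of all AML1-ETO windows and 63.5% of the windows without AML1 (59.8 to 67.0). Joined over gaps of up to 10 kb, the sites formed 1769 single sites, 149 pairs, 19 runs of 3, 1 run of 4 and 1 run of 5. The run of 5, with 18928 bp between its first and last summits, lay on chromosome 17, from the side of TSPOAP1 to SUPT4H1 (56410639 to 56429666). Its first site lay at -805 bp from the start of MIR142HG, the host gene of miR-142, a microRNA of blood cells, and had its AML1, N-CoR and p300 summits at -1, 10 and -6 bp from that of AML1-ETO. This gene was chosen after its values were seen. The run of 4, with 21216 bp between its first and last summits, lay on the same chromosome, in NHERF1 and RAB37 (72734501 to 72755816). Chromosome Y held 2 AML1-ETO windows and 0 four-protein sites. Over the other chromosomes, four-protein sites ranged from 5.65% of the AML1-ETO windows of chromosome X (21 of 372, 3.53 to 8.50) and 7.34% of chromosome 18 to 15.2% of chromosome 19 and 15.9% of chromosome 21 (42 of 264, 11.7 to 20.9).

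Among 20163 protein-coding genes, 1604 had a four-protein site in the gene or within 5 kb (7.96%), whereas 8337 had any AML1-ETO window (41.3%), so 19.2% of the genes with an AML1-ETO window had a four-protein site. Of the 1604 genes, 1323 had 1 site, 216 had 2 and 65 had 3 or more. Long genes offer more room. The median length was 46.1 kb for genes with a site, 41.3 kb for genes with any AML1-ETO window and 27.2 kb for all. The 8 genes with 5 or more sites were all longer than the median of all genes. Of the genes tied at 4 sites, the 2 shortest, GRK2 and VSIR, are named, so their short length follows from the choice. SEPTIN9, which encodes a septin of the cytoskeleton, had 7 of its 23 AML1-ETO windows as four-protein sites, between 51.1 and 185 kb past its start on chromosome 17. CDH23, a cadherin gene, had 7 of 20, 3 of them in the body of VSIR, which lies inside it and encodes an inhibitory receptor of the immune system. VSIR itself had 4 of 9. GSE1, which encodes a partner of a histone deacetylase and demethylase complex, had 7 of 22, between 140 and 447 kb past its start on chromosome 16. ZMIZ1, a transcriptional co-activator, had 6 of 18, and HIVEP3, a zinc finger protein, had 6 of 18. DENND3, an activator of Rab proteins, had 5 of 12, ST3GAL1, a sialyltransferase, 5 of 11, and GRK2, a kinase of G protein-coupled receptors, 4 of 9 in a gene of 20.1 kb.

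RUNX1, the gene that encodes AML1, had 6 four-protein sites among its 26 AML1-ETO windows, all in introns and none within 1000 bp of H3K4me3. Numbered 302, 493, 839, 963, 1983 and 9687 in the AML1-ETO list, they lay on chromosome 21, where 5 of them fell between 36238007 and 36423891 and the last, from 36848110 to 36848209, in the long first part of the annotated gene. Their 4 summits spanned 17, 28, 14, 20, 59 and 87 bp in that order, so the sites early in the list were the tight ones. The sites numbered 302 and 839, printed above, held TGTGGT, and those numbered 493, 963 and 1983 held none of the 4 sequences.

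**Figure D5:**
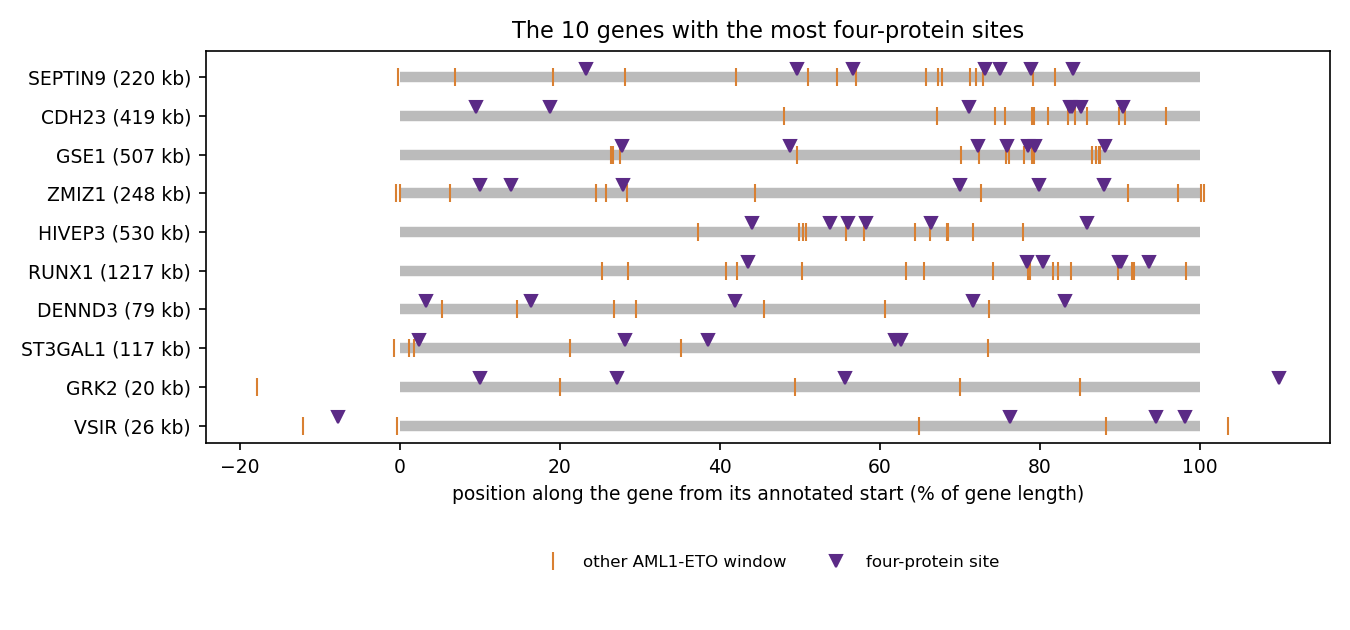
AML1-ETO windows along the 8 genes with 5 or more four-protein sites and the 2 shortest of those with 4; the x axis is the position from the annotated start in percent of gene length, grey bars are genes, triangles are four-protein sites and ticks other AML1-ETO windows. Most triangles lie inside the gene and away from its outermost annotated start, and VSIR lies within CDH23, so 4 sites are drawn in both. Some stand beside another annotated start of the same gene, in SEPTIN9 at 48 and 3 bp and in DENND3 and ST3GAL1 at 20 bp.

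The lists of genes were drawn up with results of these data known and partly follow genes that the study discusses, so their counts are descriptions and no independent evidence. They are given beside the share of all protein-coding genes with a four-protein site, 7.96%, and of genes with an AML1-ETO window, 19.2%. Among 28 transcription factors of blood cells, 11 had a four-protein site (39.3%), out of 18 that had an AML1-ETO window. LYL1 and ERG, which like TAL1, LMO2 and FLI1 act in blood stem cells and progenitors, had 3 each. SPI1, which encodes PU.1, GFI1, a repressor in granulocyte development, LMO2 and FLI1 had 2 each, and TAL1, ETV6, ELF1 and ZEB2 had 1 each. Of their 24 sites, RUNX1 included, 8 were near H3K4me3 and 7 within 1000 bp of a start. The site of TAL1 lay 338 bp past the start of the gene, 1 of LMO2 at 17 bp, and 1 of GFI1 at 765 bp with both TGTGGT and AGGAAG. At SPI1 the sites lay 1826 and 18741 bp past the start, and the second, number 828 of the list, also held both.

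Among 14 genes of granule and antimicrobial proteins, 5 had a four-protein site (35.7%), out of 11 with an AML1-ETO window. MPO, the peroxidase of neutrophil granules, had 3, and these were all of its AML1-ETO windows, 114, 972 and 3997 bp upstream of the start. At the outermost of these the AML1 summit was 75 bp from that of AML1-ETO and the p300 summit 13 bp, whereas at the one nearest to the start all 4 summits spanned 24 bp. AZU1, the granule protein azurocidin, had 2 of 2, at 1228 bp upstream and 2678 bp past its start. CTSG, a granule protease, had 1 at 136 bp upstream of the start, BPI, which binds bacterial lipopolysaccharide, 1 at 44 bp upstream, and RNASE2, an eosinophil ribonuclease, 1 at 186 bp past the start. Unlike the 500 sites that had both a start and H3K4me3 within 1000 bp, these 3 had it far away, 133193 bp at CTSG, 130731 bp at BPI and 15707 bp at RNASE2. The MPO sites 114 and 972 bp upstream of the start also lacked H3K4me3 within 1000 bp, the nearest being 2215 and 2370 bp away. Of the 8 sites in this group, 6 were within 1000 bp of a start and 3 near H3K4me3. Among 6 subunits of the NADPH oxidase, which makes superoxide in phagocytes, NCF4 and RAC2 had 2 sites each, out of 5 genes with an AML1-ETO window, and at NCF4 the pair included a site 61 bp upstream of the start.

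Receptor adapters, kinases and phosphatases held the highest share of the lists, with 14 of 20 genes (70.0%), out of 19 with an AML1-ETO window. The median length of these genes was 47.5 kb. TYROBP, a signalling adapter of immune receptors, had 3 of its 5 AML1-ETO windows as four-protein sites, and 2 of these were shared with its neighbour HCST, a related adapter. PLCG2, a phospholipase, VAV1, a guanine nucleotide exchange factor, and INPP5D, a phosphatase of inositol lipids, had 2 each. PTPN6, a tyrosine phosphatase, had 1 of 3, with its 4 summits within 13 bp, PIK3CD, a catalytic subunit of phosphoinositide 3-kinase, had 1 of 9 at 34 bp upstream of a start, and LAPTM5, a lysosomal membrane protein of blood cells, 1 of 4. Of the 19 sites in this group 3 were near H3K4me3 and 11 held AGGAAG, beside 46.9% of all four-protein sites. TGTGGT was held by 1, beside 25.9% of all four-protein sites, and TGCGGT by 4 others.

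Surface receptors and adhesion molecules and genes of the cell cycle had shares of 16.7% and 11.1%. Of those with an AML1-ETO window, 21.1% and 16.7% had a four-protein site, near the 19.2% of all such genes. Of 24 surface genes 4 had a four-protein site, and 19 had an AML1-ETO window. ITGB2, the shared beta chain of the leukocyte integrins, had 4 of 9, CD82, a tetraspanin, 2 of 5, and CSF1R, the receptor of macrophage colony-stimulating factor, and SELPLG, the ligand of P-selectin, 1 each. Of 18 genes of cell cycle and survival 2 had one, out of 12 with an AML1-ETO window. CDK6, a kinase of the G1 phase, had 3 of its 4 AML1-ETO windows as four-protein sites, from 81.3 to 203 kb past its start, and RB1, the retinoblastoma gene, 2 of 5. Both sites counted for RB1 had a start of another gene, RCBTB2, as the nearest, 1 of them at 89 bp. Of 16 co-repressors and co-activators 4 had one, among them CBFA2T3, a relative of ETO, with 4 of 8, and HDAC3 and TBL1X, partners of N-CoR, with 1 each. The site counted for HDAC3 lay in its neighbour DIAPH1, 85 bp from a start of that gene. Among 16 markers of other cell types there were 2, at CD3E and APOA1, out of 4 with an AML1-ETO window.

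The sites that came first in the AML1-ETO list were spread over genes of several kinds. Number 1 lay in an intron of ADCY7, an adenylyl cyclase, 2647 bp past its start, with the AML1, N-CoR and p300 summits at -24, -19 and -36 bp from that of AML1-ETO, and its window held TGTGGT and 2 copies of AGGAAG. Number 2 lay in RPS6KA1, a ribosomal S6 kinase, with N-CoR and p300 both at 1 bp and AML1 at -19 bp. Number 5 lay in BCL3, a partner of NF-κB, number 9 in ABI3, number 10 in STAB1, a scavenger receptor, and number 12 in RNF166, at 491 bp from a start. Numbers 4, 6, 11 and 13 lay outside protein-coding genes, with TYROBP, COX4I1, RUNX3 and KLHDC4 as the nearest protein-coding starts, the one of RUNX3 being 68982 bp away. All 10 were more than 1000 bp from H3K4me3, the closest at 1959 bp. The spans of their 4 summits ran from 16 bp at RNF166 to 46 bp near RUNX3. The first site near H3K4me3 was number 15, at 240 bp upstream of RNF149 and with AML1, N-CoR and p300 at 25, 21 and 3 bp. It was followed by numbers 32 at SH3BP2 (29 bp upstream of a start), 33 far upstream of MDM1, 42 at LNPEP (178 bp upstream) and 43 in LAPTM5. Their spans were 25, 91, 71, 68 and 24 bp, so those at SH3BP2, MDM1 and LNPEP were wider than any of the first 10.

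The tightest sites were not the first of the list. The 8 sites with the smallest spans, 3 to 6 bp, had AML1-ETO numbers of 1705 (beside PCID2), 2579 (an intron of CACNB4), 5122 (68 bp upstream of SPHK1, a sphingosine kinase), 5970 (352 bp upstream of ADNP), 3651 (an intron of CELF2), 135 (46 bp upstream of CCDC88A), 2621 and 5904. The last 2 lay 56356 bp and 130555 bp from the nearest protein-coding starts, those of ANXA3 and MACROH2A1. Of the 8, those at SPHK1, ADNP, CELF2 and CCDC88A were near H3K4me3.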

How the data were processed

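Kasumi-1 chromatin was precipitated with antibodies to AML1, ETO (for AML1-ETO), N-CoR, p300 and H3K4me3 and sequenced. Per the submitters' processing notes, CASAVA 1.6, Bowtie 0.12.8 and MACS2 2.0.10.20131216 were used. The deposited lists give positions in hg19, in 100 bp windows around each summit, after the authors pooled the replicates of each antibody. They hold no score, read count or depth. The names of rows inside the N-CoR, p300 and H3K4me3 lists refer to another antibody, but their positions differ from the lists of that antibody, and each list was used under its own label. H3K27me3 and input were not analysed here.

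Windows were compared by position, with at least 1 bp shared, using samtools 1.23.1, pysam 0.24.0 and Python 3.11.15 with SciPy 1.17.1, numpy 2.4.6 and matplotlib 3.10.9. The 8 mitochondrial windows were left out. Starts and genes came from GENCODE release 44 placed on GRCh37, with 254376 transcripts, and sequences from the GRCh37 genome. Motifs were searched on both strands. Shares have exact (Clopper-Pearson) 95% intervals and differences Newcombe's intervals. No p-value was computed, since no replicate lists were used. The scripts were tested on simulated data.

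A gene was given a site when the AML1-ETO summit lay in it or within 5 kb. Genes and sites were named by rule: the 10 genes with the most sites (ties to the shorter gene), the 8 sites with the smallest span, the 10 first in the AML1-ETO list and the 5 first near and away from H3K4me3, the 5 just inside and outside the limit, and members of the lists of genes with a site. The members and lists were chosen with earlier results of these data known. Some listed genes are not reported here. Alternatives changed the overlap, the window, the distances, the sequences and the part of each list used, and left out each chromosome in turn.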

Additional observations from a re-analysis of the deposited data

How the results depend on the processing

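Of 149 alternative values, 78 lay inside the interval of the value reported (for the number of sites, within 1.5 times of it) and 71 lay outside. All 408 values with 1 chromosome left out lay inside by the same measure, with 1921 to 2133 sites. The difference in GAGGAA from the windows without p300, whose interval includes 0, then ran from -1.41 to 0.132 points, above 0 without chromosome 11 alone. It was also above 0 with an overlap of at least 50 bp (1.14 points) and with windows of 25 bp to either side (0.976 points). The differences in H3K4me3, starts and TGTGGT kept their sign in every alternative run, and those in AGGAAG and in CCGGAA and those within strata were not recomputed. The lists hold no depth per site, and how many sites escaped detection in 1 of the lists was not estimated. No paired analysis was possible because the replicates of each antibody were pooled into a single list.

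With an overlap of at least 50 bp there were 1406 four-protein sites. Of these 26.8% were near H3K4me3 (13.6 points above the windows without p300), 33.1% near a start, 28.7% held TGTGGT, 49.8% AGGAAG, 32.3% GAGGAA and 13.6% both TGTGGT and AGGAAG. The offsets of AML1, N-CoR and p300 were 17, 15 and 19 bp, 12.7% had another site within 10 kb and 5.30% of genes had a site. With windows of 25 bp to either side there were 1380 sites, and the values were 26.9% (13.8 points), 33.2%, 28.8%, 49.5% and, for TGTGGT with AGGAAG, 13.7%, with offsets of 17, 15 and 19 bp, 12.7% and 5.18%. Windows of 100 bp to either side gave 33.7% near H3K4me3 (23.4 points), 38.4% near a start (17.7 points), a TGTGGT difference of -20.3 points, a median of 2414 bp to a start, offsets of 22, 22 and 28 bp and 9.22% of genes. These offsets follow from the limit that each window sets.

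The first 50% of each list, that of H3K4me3 included, gave 846 sites, 13.2% near H3K4me3 (8.39 points), 32.0% near a start, 28.1% with TGTGGT, 51.7% with AGGAAG, 14.8% with both, an N-CoR offset of 18 bp, 11.8% with another site and 3.38% of genes. The shorter H3K4me3 list lowers the share near it by construction, and any other cause was not tested. A stretch shared by all 4 windows gave 7.42% of genes.

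Distances of 500 and 2000 bp gave 24.2% and 34.2% near H3K4me3 and 29.3% and 44.3% near a start, and protein-coding starts alone gave 28.4% and a median of 6044 bp. Searching 25 bp to either side gave 14.3% with TGTGGT (a difference of -10.04 points), 28.6% with AGGAAG, 16.9% with GAGGAA and 3.42% with TGTGGT and AGGAAG, and 100 bp gave 34.2% (-20.9 points), 65.4%, 46.5% and 22.1%. Around the centre of the summits AGGAAG was found in 49.2%. Counting TGTGGT or TGCGGT gave 34.5%, and 15% together with AGGAAG. The sequence CCGGAA in place of AGGAAG gave 12.5%, and GAGGAAGT in place of GAGGAA 7.45%. Another site lay within 5 kb of 11.2% and within 50 kb of 37.1%. Sites inside the gene alone gave 5.43% of genes, and a distance of 20 kb 11.7%.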
